A study of Malus hupehensis with 3 samples.

Results

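miR390 and its relative miR391 were examined in leaves of *Malus hupehensis*, an apple rootstock, together with novel_mir_160, a predicted miRNA that resembles miR391. The members were all entries named mdm-miR390 or mdm-miR391 (mdm for *Malus domestica*) plus novel_mir_160. They made 8 of the 380 listed entries and 3 of the 257 distinct mature sequences. The 6 entries of mdm-miR390 shared 1 sequence, and mdm-miR391 and novel_mir_160 had 1 entry each. Adult phase (A) leaves came from the tops and juvenile phase (J) leaves from the base of 18 trees of *M. hupehensis* that were 6 years old, collected in June and pooled. Each phase gave 1 small RNA library, and the J leaves also gave 1 degradome library, in which the cut ends of mRNAs are sequenced. Phase went with the place on the tree, so both cannot be told apart, and without replicates no difference between A and J was tested.

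In plants, miR390 is loaded into ARGONAUTE7 and guides cutting of the noncoding TAS3 transcripts. These are then processed into small interfering RNAs that repress a group of auxin response factors, transcription factors that act in leaf polarity and, in *Arabidopsis*, in the timing of the change from juvenile to adult leaves. Loading of miR390 into ARGONAUTE7 in *Arabidopsis* depends in part on the adenosine at its 5′ end. miR391 is a relative of miR390, and miR3627 and miR5225 are counted with it among the miRNAs that descend from miR390.

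The mature sequences are shown because the members differ in a few bases that bear on how they are told apart and how they pair with mRNAs. They are written 5′ to 3′ with the seed, bases 2 to 8, in capitals.
mdm-miR390: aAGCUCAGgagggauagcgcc
mdm-miR391: uACGCAGGagagaugacgccg
novel_mir_160: uAUGCAGGagagaugacgccg
mdm-miR3627a, mdm-miR3627b and mdm-miR3627c: uCGCAGGAgagauggcacua
mdm-miR5225a and mdm-miR5225b: uCUGUCGAaggugagauggugc
All 3 members were 21 nt long, and each of the 5 seeds was found in a single distinct sequence of the 257. The sequence of mdm-miR390 began with A, as did 18 of the 85 known sequences, whereas mdm-miR391 and novel_mir_160 began with U, as did 57 of the 85.

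mdm-miR391 and novel_mir_160 were identical at 20 of 21 bases and differed by C3U, counted from the 5′ end with the base of mdm-miR391 first. mdm-miR390 matched mdm-miR391 at 14 of 20 overlapping bases when shifted by 1 base, and it matched novel_mir_160 at 13 of 20. The longest run shared by mdm-miR390 with each of the others was CAGGAG, at bases 6 to 11 of mdm-miR390 and bases 5 to 10 of both others. Over the other 256 sequences, the median was 8 bases identical to mdm-miR391. After novel_mir_160, the closest to mdm-miR391 were mdm-miR3627, with 15 of 20 bases and a shared run of 13, and mdm-miR390. Next came mdm-miR5225a and mdm-miR5225b and the predicted novel_mir_116, with 13 bases each. Of the 172 predicted sequences, only novel_mir_160 lay 1 base from a known sequence of the same length.

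The levels of the members differed widely, with mdm-miR391 far above both others. Read counts are raw, and RPM is reads per 1000000 clean reads of the library. Exact Clopper-Pearson 95% intervals are given, which cover counting error only and treat each read as a separate draw. Reads amplified by PCR and carrying no molecular identifier cannot be taken as separate molecules, so the intervals may be too narrow. The A library held 44526 reads of mdm-miR391 and the J library 60184. This was 2745 RPM in A (2720 to 2771) and 4442 RPM in J (4407 to 4478). It was thereby the 4th most abundant of the 85 known sequences in A and the 7th in J, with 5.68% and 3.91% of the known miRNA reads. Its neighbours in rank were mdm-miR167b and mdm-miR408b in A and mdm-miR156a and mdm-miR535a in J, and its interval overlapped none of theirs.

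mdm-miR390 was scarce in both libraries. Its 6 entries had 34 to 38 reads in A and 50 to 51 in J. The 3 entry patterns were 34 reads in A with 51 in J, found for 3 entries, 38 with 50, found for 2, and 35 with 50, found for 1. Entries of the same mature sequence thus differed slightly in count, as they did for 18 of the 53 known sequences with more than 1 name. How reads were assigned to entries is not given in the sources used here, so mdm-miR390 was entered once with its largest value in each library, 38 reads in A and 51 in J. This was 2.34 RPM in A (1.66 to 3.22) and 3.76 RPM in J (2.80 to 4.95). mdm-miR390 ranked 51st of 85 in A and 46th in J, and its interval overlapped those of both neighbours in rank in each library.

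novel_mir_160 was also scarce. It had 76 reads in A and 34 in J, or 4.69 RPM (3.69 to 5.86) and 2.51 RPM (1.74 to 3.51). Among the 172 predicted sequences it ranked 33rd in A and 56th in J, with intervals that overlapped those of its neighbours in rank. In A it had 2 times the reads of mdm-miR390, and in J 0.667 times, but in J their intervals overlapped, so their order there was not settled by the counts.

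**Figure D1:**
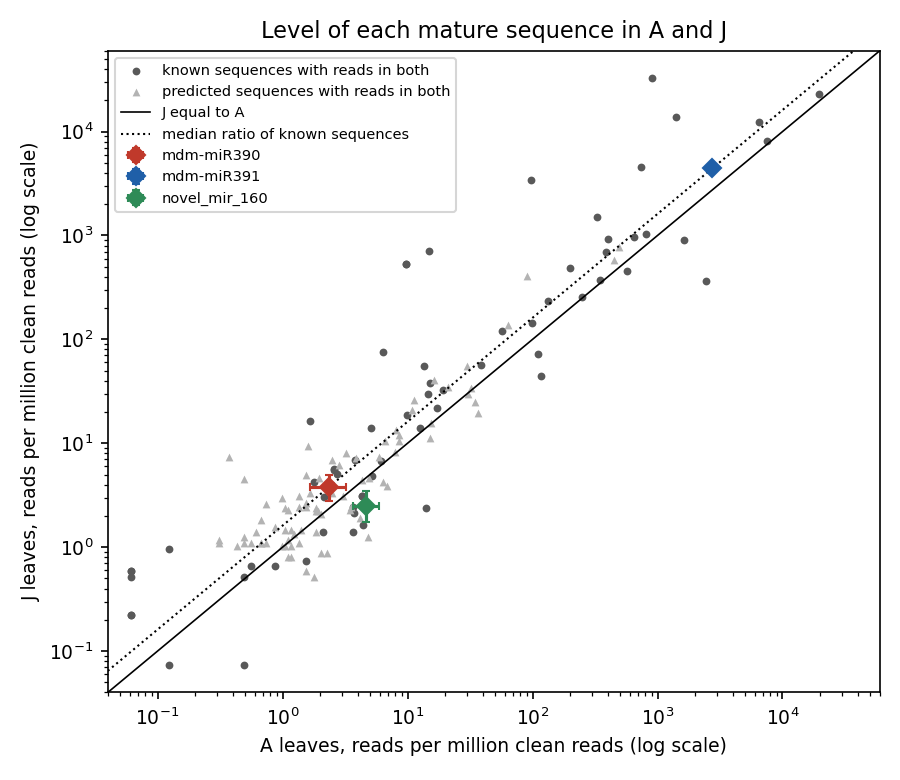
Level of each mature sequence with reads in both libraries, in RPM on log axes, with A on the x axis and J on the y axis; diamonds with bars are the members with exact 95% counting intervals. mdm-miR391 is at 2745 RPM in A and 4442 in J, and mdm-miR390, at its largest counts among entries, is at 2.34 and 3.76. Both sit on the dotted line of the median ratio of known sequences, and novel_mir_160 sits below the solid line of equal levels.

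mdm-miR390 and mdm-miR391 had nearly the same ratio of J over A although the level of mdm-miR391 was 1172 times that of mdm-miR390 in A and 1180 times in J. The ratio of J RPM over A RPM was 1.61 (1.04 to 2.51) for mdm-miR390 and 1.62 (1.60 to 1.64) for mdm-miR391. The largest counts of mdm-miR390 in A and J came from different entries, and the entries by themselves gave 1.58, 1.71 or 1.80. With the largest count among entries, they were neighbours in the middle of the distribution. Among the 56 known sequences for which each library held 10 or more reads, 27 had a lower ratio than mdm-miR390 and 27 a higher ratio than mdm-miR391, so that the median, 0.69 on the log2 scale, fell between them. When entries were joined by their smallest count or their sum, the ratio of mdm-miR390 was 1.76 or 1.70, and 2 or 1 of the known sequences lay between it and mdm-miR391. To be called, a sequence needed 10 or more reads in a library, a ratio of 2 or more or of 0.5 or less, and an interval that did not hold 1. By this rule 45.8% of the 59 known sequences with enough reads were called, 37.3% as higher in J and 8.47% as higher in A, and neither mdm-miR390 nor mdm-miR391 was.

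The direction of both ratios depended on how the libraries were scaled. The ratio of mdm-miR391 was 1.35 in raw reads and 0.689 when the libraries were scaled to equal sums of known miRNA reads. It was 1.31 when mdm-miR535 and mdm-miR156 were left out of those sums. Under TMM, a scaling by the trimmed mean of the ratios, it was 1.02. Since a scaling changes all ratios by the same factor, the ratio of mdm-miR390 went likewise from 1.34 in raw reads to 0.684 under sums of known miRNA reads. The comparison between the members is free of the scaling. Divided by each other, the J over A ratios of mdm-miR391 and mdm-miR390 gave 1.01 (exact conditional 95% interval 0.644 to 1.56), so a difference between their ratios within these limits was not detectable at the depth of mdm-miR390.

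novel_mir_160 had the opposite balance. Its J over A ratio was 0.536 (0.347 to 0.813), with an interval below 1, but it missed the limit of 0.5 for a call. Of the 82 predicted sequences with reads in both libraries, 34.1% were called, 26.8% as higher in J and 7.32% as higher in A. Among the 72 predicted sequences for which each library held 10 or more reads, whose median log2 ratio was 0.36, novel_mir_160 had -0.90 and 5 had a lower ratio. Predicted sequences with 0 reads in a library entered neither the 82 nor the 72. Some of these were read in A alone, such as novel_mir_275 with 1835 reads, and others in J alone, such as novel_mir_479 with 258. Every one of the 5 other scalings gave novel_mir_160 a lower ratio, from 0.228 to 0.447, at which it was called higher in A. More predicted sequences were called higher in A under these scalings too, 40.2% of the 82 under sums of known miRNA reads, 19.5% under TMM or with the known median set to 1, and 11.0% in raw reads or with mdm-miR535 and mdm-miR156 left out of the sums.

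The contrast between novel_mir_160 and mdm-miR391 did not rest on the scaling. The J over A ratio of novel_mir_160 was 0.331 times that of mdm-miR391 (exact conditional 95% interval 0.214 to 0.502), and 0.333 times that of mdm-miR390 (0.178 to 0.622). In A, 76 of the 44602 reads of novel_mir_160 and mdm-miR391 were of novel_mir_160, or 0.170% (0.134 to 0.213). In J this share was 34 of 60218, or 0.0565% (0.0391 to 0.0789), and the intervals did not overlap. By the study's methods, a small RNA took a single annotation, and those left without one after the match to known miRNAs, which allowed fewer than 2 mismatches, went into the prediction. novel_mir_160 was listed as predicted although it differs from mdm-miR391 by 1 base. Whether its reads came from a miRNA separate from mdm-miR391 was not tested.

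**Figure D2:**
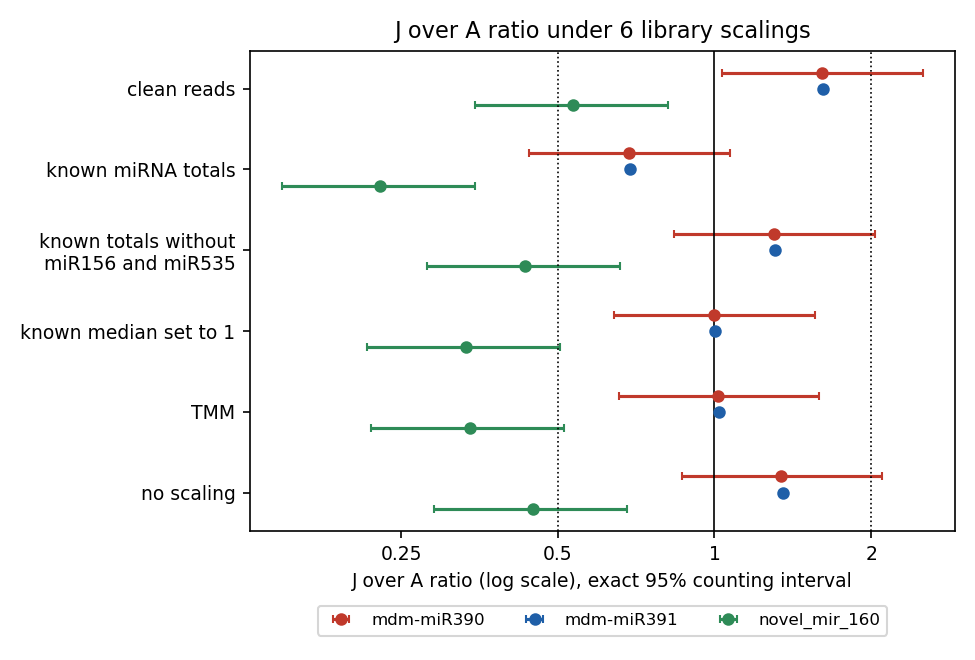
J over A ratio of each member (x axis, log scale) under 6 library scalings (y axis), with exact 95% counting intervals; the solid line marks equal levels and the dotted lines the limits of 0.5 and 2. A scaling changes all ratios by the same factor. The ratios of mdm-miR390 and mdm-miR391 go from 1.61 and 1.62 under clean reads to 0.684 and 0.689 under known miRNA totals, and novel_mir_160 stays below 1 in all 6.

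By the ratio alone, and among known sequences whose reads came to at least 50 in all, those nearest to mdm-miR391 were mdm-miR390, mdm-miR171a and mdm-miR7122a. The first place of mdm-miR390 rested on the joining of its entries, and mdm-miR171a came first with the smallest count or the sum. For mdm-miR171a, counts of 312 (A) and 439 (J) gave 1.68 (1.45 to 1.95). For mdm-miR7122a, 2173 and 3160 reads gave 1.74 (1.65 to 1.84), an interval that did not overlap that of mdm-miR391. With 2 libraries this likeness rests on 1 ratio per sequence. Ratios of mdm-miR3627 and mdm-miR5225 lay further away. The ratio was 2.76 (2.12 to 3.61) for mdm-miR3627, from 83 (A) and 191 (J) reads. The sequence of mdm-miR5225a had 103 and 1026 reads, giving 11.9 (9.73 to 14.8), whereas mdm-miR5225c, a separate sequence, had 205 and 191, giving 1.12 (0.911 to 1.37).

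In the degradome of the J leaves, the members were listed at 3 gene models, and no other miRNA was listed at these. Each deposited record names a miRNA and a gene model and holds a site position, a site count and a pairing score. In all 2204 records the score equalled 1 for each mismatch plus 0.5 for each G:U pair, so that a lower score is closer pairing. The members took 28 of these records, 24 of them because 6 entries of mdm-miR390 were listed at the same 4 sites. Each distinct combination of sequence, gene model and site was counted once below, giving 425 for known and 679 for predicted sequences. What the site count counts is not stated in the file, counts below 25 are not listed, and the depth of the degradome library is unknown here. All 271 gene models had a length that is a multiple of 3, so positions are within the coding length.

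mdm-miR390 was listed at a single gene model, MDP0000145463, annotated by the study as an exocyst subunit exo70 family protein H7. Exo70 proteins belong to the exocyst, which tethers secretory vesicles to the plasma membrane. The sites were at bases 1357, 1358, 1359 and 1367 of the 1899 bases of the model, with counts of 53, 56, 31 and 49. The first 3 sites lay side by side, with the lowest count at base 1359, and the 4th was 8 bases further on. Every one had a score of 4, the highest in the file, which 10.6% of the known combinations had. Counts larger than the 56 at base 1358 were found for 271 of the 425 known combinations, whose median count was 80.

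mdm-miR391 and novel_mir_160 were listed together at MDP0000207199 and MDP0000244081, both annotated as transmembrane protein 14C. Proteins of this family in the plastid envelope of *Arabidopsis* act in the export of fatty acids. The site was at base 633 of 972 in MDP0000207199 and at base 644 of 705 in MDP0000244081, each with a count of 48. The 31 bases around the site were the same in both models, as in 120 of the 436 distinct windows in the file, so the gene models cannot be told apart as the source of the 48 counts. The score was 3 for mdm-miR391 and 3.5 for novel_mir_160. A lower score than 3 was found for 313 of the 425 known combinations, and a lower score than 3.5 for 253 of the 679 predicted ones. Since the site and count were the same for both miRNAs, cutting guided by mdm-miR391 and by novel_mir_160 cannot be told apart.

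The 31 bases of each gene model around a listed site are shown because the pairing differs between the members. They are written 5′ to 3′ as DNA in the gene model, with the site at base 15, and capitals mark the bases in Watson-Crick pairs with the miRNA.
MDP0000145463, site 1358, with mdm-miR390: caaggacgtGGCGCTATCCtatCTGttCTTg
MDP0000145463, site 1367, with mdm-miR390: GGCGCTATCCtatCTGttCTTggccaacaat
MDP0000207199, site 633, with mdm-miR391: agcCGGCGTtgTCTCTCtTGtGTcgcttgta
MDP0000207199, site 633, with novel_mir_160: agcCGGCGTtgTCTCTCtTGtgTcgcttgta
The last 2 lines differ in case at a single base. This base lies opposite base 3 of the miRNA, where C3U turns a Watson-Crick pair into a G:U pair and raises the score from 3 to 3.5.

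Cutting guided by a plant miRNA is looked for opposite its bases 10 and 11, so that the downstream fragment starts with the base opposite base 10. For mdm-miR391 and novel_mir_160 the site lay opposite base 10 at both gene models, as in 60.9% of the known and 7.81% of the predicted combinations. Bases 8 to 13 of both miRNAs were in Watson-Crick pairs there, with a mismatch at base 1 and G:U pairs at bases 4, 7, 14 and 15, and for novel_mir_160 also at base 3. The position was therefore the one looked for, although G:U pairs lay on both sides of it.

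For mdm-miR390, the base opposite base 10 is 1364 of MDP0000145463, and no site was listed there. The sites at bases 1357, 1358 and 1359 lay opposite bases 17, 16 and 15 of mdm-miR390, and the site at base 1367 opposite base 7. Over the 425 known combinations, base 15 was opposite the site in 2, base 16 in 1 and base 17 in 1, so mdm-miR390 made up 3 of these 4. A site opposite base 7 was found in 17. Of the 298 pairings of a known sequence with a gene model, 259 (86.9%) had a site opposite base 10. Among them, 2 pairings had 4 or more sites, and 0 of these 2 had a site opposite base 10. They were the pairing of mdm-miR390 and that of mdm-miR3627 with MDP0000278575, whose sites lay opposite bases 9, 11, 12 and 13.

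The pairing of mdm-miR390 with MDP0000145463 was strongest towards the 3′ end of the miRNA, with 10 Watson-Crick pairs in a row at bases 12 to 21. It was broken in the centre, by a mismatch at base 10 between G:U pairs at bases 9 and 11, and there were further mismatches at bases 4 and 5. A mismatch at base 10 occurred in 26 of the 298 known pairings (8.72%), and the pairing of mdm-miR390 was the only one of the 298 without a Watson-Crick pair at bases 9, 10 and 11. This count was made after the pairing had been seen.

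**Figure D3:**
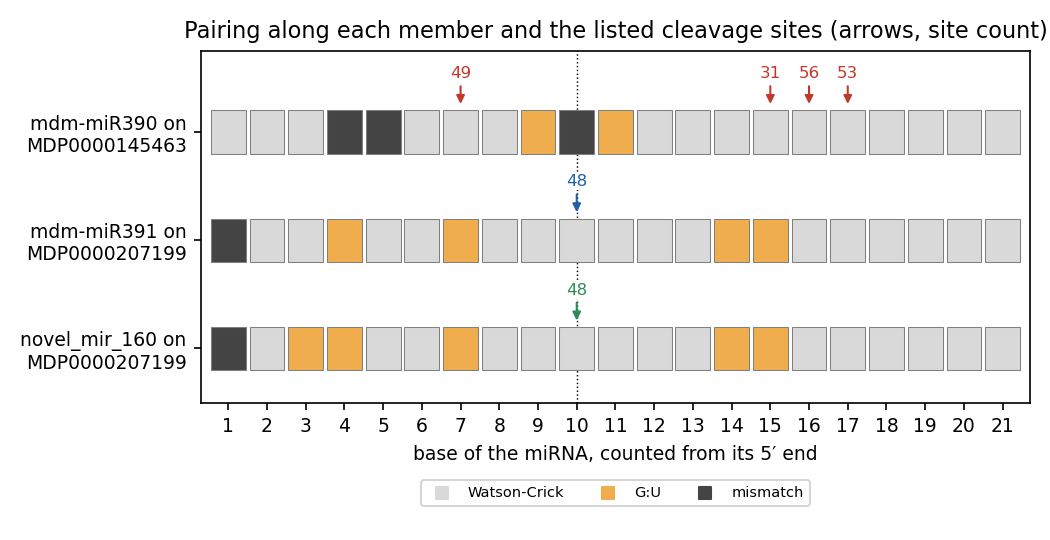
Pairing of each member with its gene model along the miRNA (x axis, base from the 5′ end; a row per member), with Watson-Crick pairs in light grey, G:U pairs in orange and mismatches in dark grey, and arrows at the base opposite each listed site labelled with the site count. The arrows of mdm-miR391 and novel_mir_160 stand at base 10 within paired bases. Those of mdm-miR390 stand at bases 7, 15, 16 and 17, on either side of a mismatch at base 10 between G:U pairs.

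**Figure D4:**
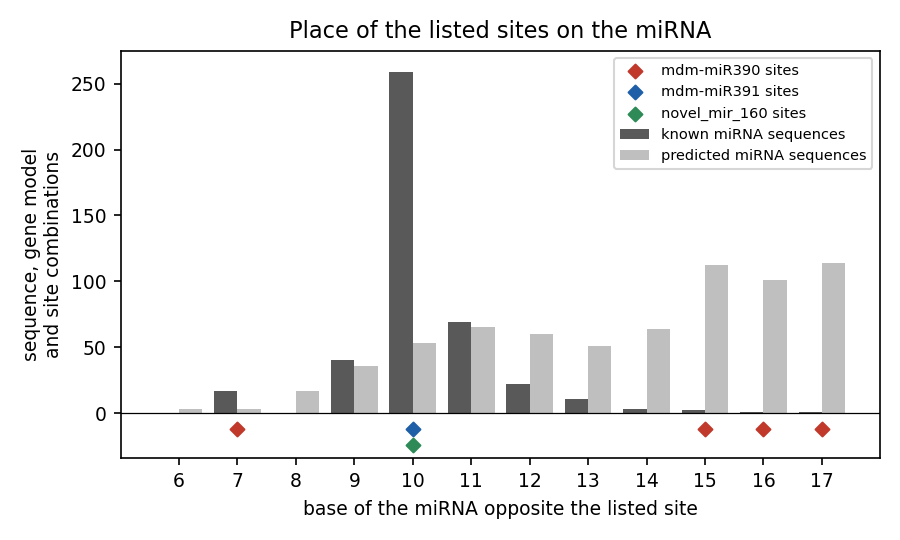
Number of combinations of sequence, gene model and site (y axis) by the miRNA base opposite the site (x axis), for known (dark bars) and predicted (light bars) miRNAs, with the sites of the members as diamonds below 0. Known miRNAs peak at base 10 with 259 of 425, where mdm-miR391 and novel_mir_160 also lie, and mdm-miR390 lies at bases with 1 to 17 known combinations.

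TAS3 transcripts, the known partner of miR390, are noncoding and were not analysed here. Of the auxin response factors, 11 gene models had a listed site, 5 with mdm-miR160 and 6 with mdm-miR167. None was listed with mdm-miR390, and none of the 11 was annotated as auxin response factor 2, 3 or 4, the ones that TAS3 small RNAs repress in *Arabidopsis*. Each record names a known or predicted miRNA, so a site cut by TAS3 small RNAs could not be listed as such. Nothing about that pathway in these leaves follows from these counts.

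To see how far each member pairs with other listed sites, each was laid without gaps on all 436 windows, a step added after the sites had been seen. The penalty was 4 or less in 4 windows for mdm-miR390 and in 1 for each of mdm-miR391 and novel_mir_160, in every case at the gene models already listed for them. Scores in the file follow the same rule and reach up to 4. That no other gene model came to 4 or less was therefore largely set by how the file was made. Outside the gene models listed for it, the lowest penalty of mdm-miR391 was 5, at MDP0000258197, an autoinhibited Ca2+-ATPase that pumps calcium out of the cytosol. The site there, at base 729 with a count of 60, was listed for mdm-miR3627 with a score of 2 and for mdm-miR5225 and novel_mir_116 with a score of 3. It lay opposite base 9 of mdm-miR3627, base 13 of mdm-miR5225 and base 12 of novel_mir_116. With mdm-miR391 laid on it, the site lay opposite base 10, at a penalty above the highest score in the file. The penalty there was 5.5 for novel_mir_160 and 6.5 for mdm-miR390. The other gene model of mdm-miR3627, MDP0000278575, had 4 sites with a score of 4, and the members had penalties of 6 to 6.5 there.

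Among the sites not listed for it, mdm-miR390 had its lowest penalty, 5.5, on the transmembrane protein 14C site, where mdm-miR391 had 3. On MDP0000145463, mdm-miR391 and novel_mir_160 each had a penalty of 8.5, against 4 for mdm-miR390. The median over the 436 windows was 9.5 for mdm-miR390 and 11 for each of the others.

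**Figure D5:**
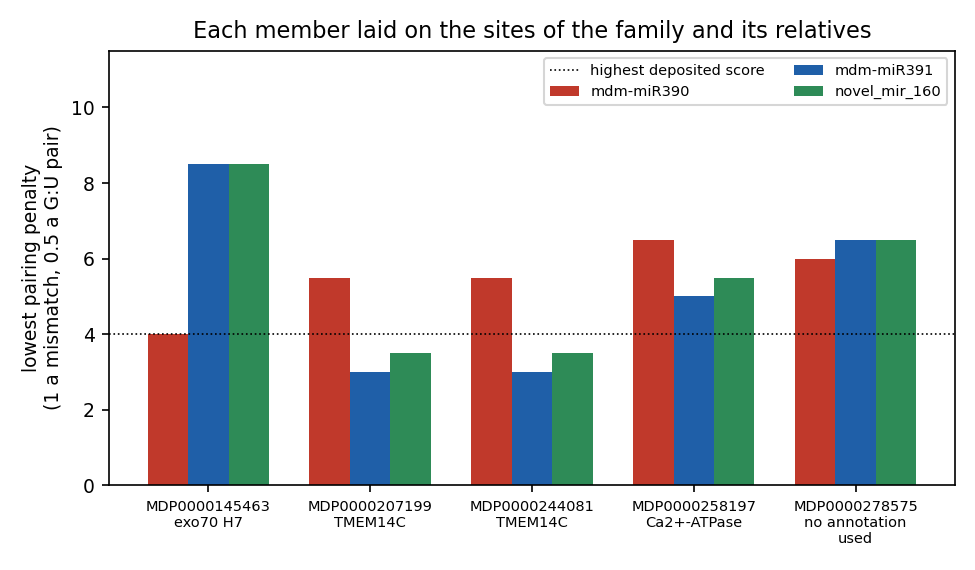
Lowest pairing penalty (y axis, 1 for a mismatch and 0.5 for a G:U pair) of each member on the windows of 5 gene models (x axis), the 3 listed for the members and 2 listed for mdm-miR3627. Only the listed pairs have bars at or below the dotted line at 4, the highest score in the file, which the listing largely sets. Next nearest is mdm-miR391 at the Ca2+-ATPase with 5.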

How the data were processed

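Per the study's methods, the authors cut 18 to 30 nt RNA from a gel for sequencing, matched reads to *Malus domestica* miRNAs of miRBase 18.0 and predicted others with Mireap, and they deposited raw read counts for each entry with no normalization. Names were joined to the counts through the mature sequences in the study's supplementary tables. The deposited counts sum to 4272351 in A and 6275651 in J. RPM used the clean reads stated by the study, of which A had 1.20 times as many as J.

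Degradome fragments were mapped to the apple genome, and the authors paired them with miRNAs in PairFinder; counts and scores of sites are the deposited values, not scaled. The site was placed at base 15 of the 31-base window because all 3 windows with the site at position 15 of their gene model start with ATG.

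Each sequence was counted at the largest count among its entries. Intervals were computed in SciPy 1.17.1 under Python 3.11.15 (numpy 2.4.6), TMM in edgeR 4.0.16 (R 4.3.3), and figures in matplotlib 3.10.9. A known sequence with 0 reads in a library was given 3 reads for a call; predicted ones with 0 were left out. The scripts were tested on simulated data. Alternatives changed the scaling, the joining of entries, the limits for a call and the filters on sites. Named besides the members were the closest sequences to mdm-miR391 (the 3 closest, and the relatives mdm-miR3627 and mdm-miR5225), the 3 nearest ratios, other miRNAs at the same gene models, and auxin response factors with a site; novel_mir_116 was named after its values were seen. The members and lists were chosen with earlier results of these data known.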

Additional observations from a re-analysis of the deposited data

How the results depend on the processing

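No paired analysis was possible because each phase had 1 library, and no library could be left out. All 5 other scalings lowered the J over A ratios. For mdm-miR390 the ratio was 0.684 under known miRNA totals, 0.996 with the known median set to 1 and 1.02 under TMM. For mdm-miR391 it was 0.689, 1.004 and 1.02 in the same order, 1.31 with mdm-miR535 and mdm-miR156 left out of the known totals, and 1.35 without scaling. For novel_mir_160 it was 0.228, 0.332 and 0.338 in the same order. Joining entries by the smallest count or by their sum moved no ratio of a member, and no ratio between members, outside its interval.

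The numbers of called sequences also followed the scaling. They are out of 59 known and 82 predicted sequences tested, except where 50 reads were required. Known sequences higher in J fell from 22 to 9 under known totals and 12 with the known median set to 1 or under TMM. Those higher in A, 5 with clean reads, were 22 under known totals, 13 with the known median set to 1 or under TMM, and 8 with mdm-miR535 and mdm-miR156 left out of the known totals, without scaling, or with a ratio limit of 1.5. Predicted sequences higher in J, 22 with clean reads, were 3, 5 and 6 under known totals, the known median and TMM. They were 12 with mdm-miR535 and mdm-miR156 left out of the known totals, and 13 without scaling. With 50 reads required, only 39 predicted sequences were tested, and 12 of these were higher in J. Predicted sequences higher in A, 6 with clean reads, were 33 under known totals, 16 with the known median or under TMM, and 10 with a ratio limit of 1.5. With 50 reads required they were 2 of 39.

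With a site count of 50 or more, 2 of the 4 sites of mdm-miR390 and 0 of those of mdm-miR391 and novel_mir_160 were left. With a score of 3 or less, 0 were left for mdm-miR390 and novel_mir_160, and with the site opposite base 10, 0 for mdm-miR390. Depth limits mdm-miR390 and novel_mir_160 most, at 34 to 76 reads a library.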
